A study of Mus musculus with 64 samples.

Results

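The 10 genes described here, Aldoc, S100b, Slc1a2, Slc1a3, Aqp4, Gjb6, Gja1, Gfap, Aldh1l1 and Rlbp1, are used as markers of astrocytes. They were taken by symbol from the count table of the study, and all 10 of its 24421 gene symbols that were asked for were present. RNA was sequenced in 64 adult male 129S1/Svlm mice from punches of the ventral tegmental area (VTA), where the dopamine neurons of the midbrain reward pathway lie. The mice were labelled as carrying ClockΔ19, a dominant-negative allele of the circadian transcription factor gene Clock, or as wildtype. For 14 days they received valproate (VPA), a mood stabiliser that also inhibits histone deacetylases, ACY957, which inhibits class I histone deacetylases, or a vehicle matched to each drug. Brains were collected at zeitgeber time 6, which was 24 h after the last dose, in punches of 1 mm. Each library came from an individual mouse. VPA was given to 8 mice labelled mutant and 8 labelled wildtype, and ACY957 to 8 labelled mutant and 8 labelled wildtype. The VPA vehicle was given to 13 mice labelled mutant and 3 labelled wildtype, and the ACY957 vehicle to 11 labelled mutant and 5 labelled wildtype.

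Astrocytes take up the glutamate that neurons release, buffer potassium and water around synapses and vessels, and supply neurons with fuel. They are joined to each other by gap junctions and react to injury and disease by raising intermediate filament proteins. Slc1a2 and Slc1a3 encode the main astrocytic glutamate transporters (GLT-1 and GLAST), Gja1 and Gjb6 encode the gap junction proteins of astrocytes, and Aqp4 encodes the water channel of their endfeet. Gfap encodes an intermediate filament protein, Aldoc a brain aldolase of glycolysis, and Aldh1l1 an enzyme of folate metabolism. S100b encodes a calcium-binding protein that is also made by cells of the oligodendrocyte lineage. Rlbp1 encodes a retinaldehyde-binding protein best known from glia and pigment epithelium of the retina.

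Total counts ranged from 20.1 M to 37.5 M per library, with a median of 25.8 M. All 10 genes passed the filter on low counts, with between 184 counts (the lowest library for Rlbp1) and 79082 counts (the highest for Aldoc) per library. The labels were set against the data before any comparison. The mean log2 level of 8 genes driven by the clock fell into a lower set of libraries, up to 4.33 log2 CPM (CPM, counts scaled to the library total), and an upper set, from 4.91 log2 CPM. In 13 libraries this clock output was that of the other label. Of these, 12 were labelled mutant (6 of 13 VPA vehicle, 3 of 11 ACY957 vehicle, 2 of 8 ACY957 and 1 of 8 VPA libraries). The 1 labelled wildtype was among the 8 ACY957 libraries of that label. In 4 libraries Th, the dopamine synthesis gene that marks the tissue, lay under 8 log2 CPM (2 of 8 VPA libraries labelled mutant, 1 of 8 VPA libraries labelled wildtype and 1 of 13 VPA vehicle libraries labelled mutant). Libraries are named by their labels below, and calls of the 10 genes that are lost or gained without the 13 or the 4 libraries are given with and without them.

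The 5′ windows of some genes that the results turn on are shown first, as RefSeq gives them for GRCm38.p6 (mm10). Each has 250 bases before and 50 bases after a start site, read 5′ to 3′ along the gene. Rlbp1 was called in comparisons, Gfap varied most between mice, and Slc1a3 and S100b moved in opposite directions. The windows lie at chr7:79386978-79387277 (minus strand, Rlbp1), chr11:102897151-102897450 (minus strand, Gfap), chr15:8710758-8711057 (minus strand, Slc1a3) and chr10:76253586-76253885 (plus strand, S100b). Capitals mark matches to TTCNNNGAA, the letters bound by STAT factors.
Rlbp1: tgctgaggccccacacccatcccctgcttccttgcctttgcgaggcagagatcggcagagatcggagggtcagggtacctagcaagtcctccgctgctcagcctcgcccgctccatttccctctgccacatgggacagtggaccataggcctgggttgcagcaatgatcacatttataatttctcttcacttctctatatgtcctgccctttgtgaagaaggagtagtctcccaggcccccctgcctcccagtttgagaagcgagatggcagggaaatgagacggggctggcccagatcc
Gfap: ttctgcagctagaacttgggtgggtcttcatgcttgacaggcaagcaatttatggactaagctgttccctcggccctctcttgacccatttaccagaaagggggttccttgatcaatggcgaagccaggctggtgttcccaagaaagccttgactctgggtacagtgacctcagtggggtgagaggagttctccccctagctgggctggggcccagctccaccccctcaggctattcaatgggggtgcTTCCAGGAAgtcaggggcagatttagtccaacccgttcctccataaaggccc
Slc1a3: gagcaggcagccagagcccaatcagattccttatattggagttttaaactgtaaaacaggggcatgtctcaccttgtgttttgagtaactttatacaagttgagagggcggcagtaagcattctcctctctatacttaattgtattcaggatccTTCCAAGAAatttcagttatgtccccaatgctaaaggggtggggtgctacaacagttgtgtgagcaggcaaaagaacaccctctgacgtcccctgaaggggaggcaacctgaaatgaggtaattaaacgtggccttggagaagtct
S100b: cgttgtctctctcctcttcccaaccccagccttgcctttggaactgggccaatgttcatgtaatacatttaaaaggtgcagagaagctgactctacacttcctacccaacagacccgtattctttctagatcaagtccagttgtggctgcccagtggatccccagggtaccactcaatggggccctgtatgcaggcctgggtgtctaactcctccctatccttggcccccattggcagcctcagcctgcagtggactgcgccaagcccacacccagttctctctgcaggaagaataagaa
Aqp4 was left out of the window search, so nothing is said here about the letters at its start site. The search covered 9 of the 10 genes, with 10 windows (2 for Aldoc). On either strand, none of the 10 held the E-box CACGTG to which CLOCK binds, the D-box TTANGTAA, the ROR element TAGGTCA or the full NFI palindrome. Over 32851 mouse windows of the same length, these letters were found in 7.15%, 2.32%, 2.61% and 0.0365% of them. The STAT letters were in the windows of Gfap (first base at -2 from the start), Slc1a3 (first base at -96) and 1 of the 2 of Aldoc, against 8.3% of all windows. A match describes letters in these 300 bases only. The start sites are those of RefSeq. The last bases of the Rlbp1 and Gfap windows were found in 1 GENCODE transcript of the gene each, and those of the Slc1a3 and S100b windows in 0.

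Levels of the genes spanned a wide range per length of exon. Aldoc was highest at 676 ± 74.6 RPKM (SD, n = 64 libraries; CPM scaled by TMM and divided by kb of merged exons). S100b followed at 262 ± 39.9 RPKM, Slc1a2 at 146 ± 14.7 RPKM, Slc1a3 at 68.9 ± 12.7 RPKM and Aqp4 at 58.3 ± 14.6 RPKM. Aldoc exceeded S100b, S100b exceeded Slc1a2 and Slc1a2 exceeded Slc1a3 in 64 of 64 libraries, while Slc1a3 exceeded Aqp4 in 41. Gjb6 was at 45.2 ± 9.83 RPKM, Gja1 at 42.5 ± 4.41 RPKM and Gfap at 36.5 ± 18.3 RPKM, and these neighbours did not differ beyond their spread (Gjb6 was above Gja1 in 34 libraries and Gja1 above Gfap in 45). Aldh1l1 was at 22.6 ± 1.93 RPKM and Rlbp1 lowest at 3.86 ± 0.747 RPKM, below Aldh1l1 in 64 of 64 libraries. The order depends on the length: per library total, without the length, Slc1a2 ranked 2 and S100b ranked 5. Of the 10 genes, 4 (Rlbp1, Aldoc, Gja1 and Gjb6) share no bases with another annotated gene, and the other 6 overlap at least 1 (S100b overlaps Dip2a). The sources used here do not say whether strand was used in counting, so reads in the shared stretches cannot be assigned.

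**Figure D1:**
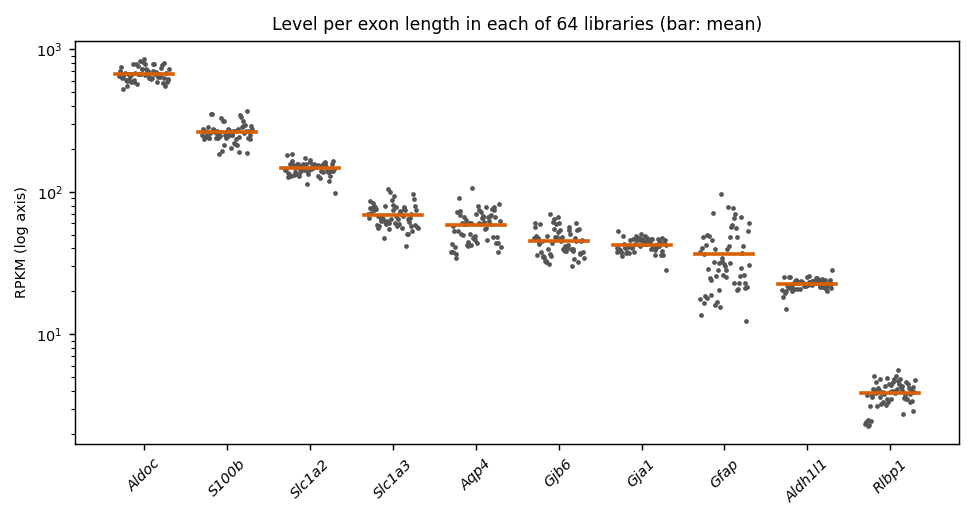
Level of each astrocyte gene in the 64 libraries, in RPKM on a log axis, with the genes in order of their mean and a bar at the mean. Aldoc averaged 676 RPKM and Rlbp1 3.86 RPKM, and Gfap had the widest spread, between 12.3 and 96.2 RPKM.

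The genes differed in how much they varied between mice of the same group. Gfap had a within-group SD of 0.66 on the log2 CPM scale, larger than that of 99.6% of the 500 genes nearest to it in level, and its highest library was 7.79 times its lowest. Aqp4 followed with an SD of 0.31 (larger than 98.2% of the 500 genes nearest to it in level), Gjb6 with 0.27 and Slc1a3 with 0.25. Aldh1l1 was the least variable, with an SD of 0.12, larger than that of 38.9% of the 500 genes nearest to it in level. The spread of Gfap was present in all 8 groups: its highest library was between 1.74 times (VPA vehicle, wildtype label, 3 libraries) and 6.32 times (ACY957 vehicle, mutant label) the lowest of the same group.

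**Figure D2:**
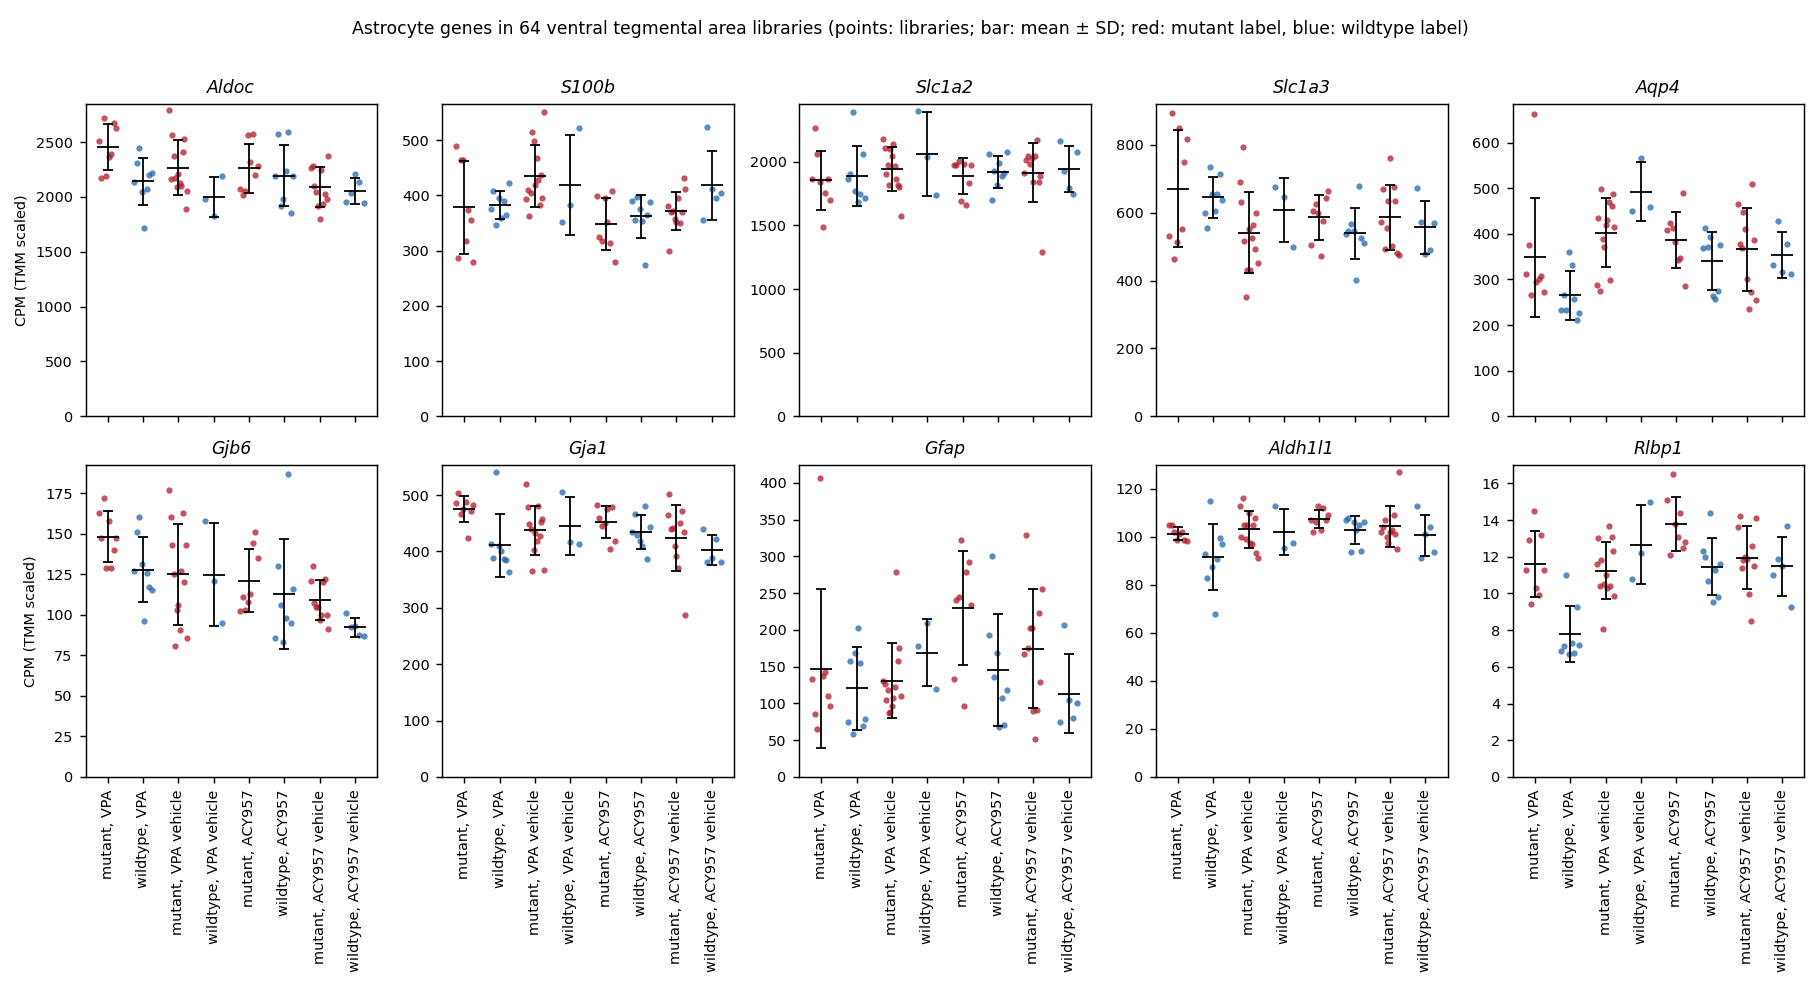
CPM (TMM scaled, axes from 0) of each astrocyte gene by group, with a point per library and bars for mean ± SD. Rlbp1 lies between 6.72 and 11 CPM in the VPA libraries labelled wildtype and between 8.07 and 16.5 CPM in all other groups; the Gfap groups overlap throughout.

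Under VPA, the mutant label was compared with the wildtype label to ask what the Clock allele changes in drug-treated mice. A gene passed where its edgeR quasi-likelihood p, adjusted over all genes tested, was under 0.05. Rlbp1 ranged from 9.41 to 14.5 CPM (median 11.3) in VPA libraries labelled mutant and between 6.72 and 11 CPM (median 7.16) in those labelled wildtype. All 8 libraries labelled mutant lay above the wildtype median and 5 of 8 lay above its highest library. Rlbp1 averaged 11.6 ± 1.78 CPM under the mutant label and 7.78 ± 1.52 CPM under the wildtype label (SD, n = 8 each), a log2 fold change of 0.58 (SE 0.10, 95% interval 0.37 to 0.78, edgeR adjusted p = 0.00152). It was the 1 of 10 astrocyte genes that passed, where 1.00% of the 15634 genes passed in either direction. Rlbp1 passed in all 9 other settings tried and when each of the 16 libraries was left out (log2 fold changes of 0.52 to 0.66). It was at 0.55 without the libraries with the clock output of the other label. Depth differed between these groups, with totals of 25.2 M to 28.2 M under the mutant label and 25.7 M to 37.5 M under the wildtype label. Replicates 1 to 6 of the latter held 31.68 M or more, and the part of depth was not tested. In whole punches, a change in the number of astrocytes and a change in RNA per astrocyte cannot be told apart.

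Other astrocyte genes were higher on average under the mutant label without passing the adjustment. Aldoc averaged 2457 ± 210 CPM in VPA libraries labelled mutant and 2142 ± 215 CPM in those labelled wildtype (log2 fold change 0.20, SE 0.07, edgeR adjusted p = 0.147). Aqp4 averaged 349 ± 131 CPM under the mutant label and 265 ± 53.3 CPM under the wildtype label (0.40, SE 0.15, edgeR adjusted p = 0.182). All 8 libraries labelled mutant lay above the wildtype median for each of these and for Gja1 and Aldh1l1. Gja1 averaged 475 ± 23.4 CPM under the mutant label and 411 ± 55 CPM under the wildtype label (0.21, edgeR adjusted p = 0.129), and Aldh1l1 101 ± 2.56 CPM and 91.7 ± 13.6 CPM in the same order (0.14, edgeR adjusted p = 0.213). Replicate 3 of the VPA libraries labelled wildtype, which is low in Th, had the highest Rlbp1 (11 CPM), Gja1 (541 CPM) and Aldh1l1 (115 CPM) of its group. Without it, Gja1 (0.27, edgeR adjusted p = 0.017) and Aldh1l1 (0.20, edgeR adjusted p = 0.0433) passed as well, while the genes passing over the whole table numbered 504 of 15628, against 157 of 15634 with it. Neither passed without all 4 libraries low in Th (edgeR adjusted p = 0.103 for Gja1 and 0.13 for Aldh1l1) or with Th as a covariate (edgeR adjusted p = 0.412 and 0.534 in the same order). Slc1a2, Slc1a3 and S100b had log2 fold changes of -0.03, 0.06 and -0.01, with 95% intervals of -0.18 to 0.12, -0.18 to 0.30 and -0.20 to 0.18. In all, 8 of 10 genes had higher and 2 had lower fitted levels in libraries labelled mutant, with a median log2 fold change of 0.20 against 0.003 over all genes tested, and 5 of 10 had an unadjusted p under 0.05, against 15.7% of all genes.

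Wider lists of astrocyte genes showed calls in the same comparison, where 1.00% of all genes tested passed in edgeR. Over all genes tested, 51.2% were higher under the mutant label, with a median log2 fold change of 0.003. Of 30 other astrocyte markers, 26 were higher and 4 lower under the mutant label (median log2 fold change 0.14), and 2 passed, both as higher: Gpr37l1, an orphan receptor of glia (0.32, SE 0.07, edgeR adjusted p = 0.00716), and Bcan, which encodes the matrix proteoglycan brevican (0.24, SE 0.06, edgeR adjusted p = 0.0227). Of 14 genes of transmitter and potassium clearance, the glutamine transporter gene Slc38a3 (0.30, edgeR adjusted p = 0.039) and the glycine transporter gene Slc6a9 (0.25, edgeR adjusted p = 0.0411) rose. Of 23 tested genes of reactive astrocytes, 15 were higher and Tm4sf1, a membrane protein gene also made by endothelial cells, rose by 0.67 (edgeR adjusted p = 0.04). Of 14 genes of fuel supply, 5 were higher and 9 lower, and Acsl6, an acyl-CoA synthetase gene, rose by 0.16 (edgeR adjusted p = 0.0138).

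Markers of other cells moved in this comparison too, where 1.00% of all genes tested passed in edgeR. All 12 dopamine neuron markers were lower on average under the mutant label (median log2 fold change -0.60, 0 passing by edgeR), and their summed level ranged from 381 to 9833 CPM in VPA libraries labelled mutant and between 1054 and 13383 CPM in those labelled wildtype. Of 12 ependymal and choroid plexus markers, 3 rose: Dnaic1 by 0.76, Rsph1 by 1.72 and Rarres2 by 0.54 (edgeR adjusted p of 0.000632, 0.0235 and 0.0365). Their summed level ranged from 42.3 to 170 CPM under the mutant label and between 35 and 92.8 CPM under the wildtype label. Of 12 endothelial and mural markers, the tight junction gene Cldn5 rose by 0.55 (edgeR adjusted p = 0.0361), and of 12 microglial markers 2 were higher and 10 lower with 0 passing by edgeR. No marker of these lists was at 0 in all libraries of a group. Their part in the astrocyte gene results was not tested, beyond the values with Th as a covariate (Rlbp1 0.54, edgeR adjusted p = 0.00785) and without the 4 libraries low in Th (Rlbp1 0.65, edgeR adjusted p = 0.0011).

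VPA was compared with its vehicle within each label to ask what the drug changes. This uses the same 8 VPA libraries labelled wildtype as the comparison above, so the 2 results on Rlbp1 are not independent. Under the wildtype label Rlbp1 was at 6.86, 7.13, 11, 6.72, 7.32, 6.78, 9.26 and 7.19 CPM with VPA, against 10.8, 12.2 and 15 CPM with vehicle. All 8 VPA libraries lay below the vehicle median and 7 of 8 below its lowest library. Rlbp1 averaged 7.78 ± 1.52 CPM with VPA (SD, n = 8) and 12.7 ± 2.17 CPM with vehicle (n = 3), and fell by 0.70 on the log2 scale (SE 0.14, edgeR adjusted p = 0.0224). It was the 1 astrocyte gene of 10 that passed, where 0.0256% of the genes tested (4 genes) passed, all as lower. The call was lost when the 2 groups were fitted on their own (edgeR adjusted p = 0.32) and without any of 4 single libraries: vehicle replicate 3 (-0.56, edgeR adjusted p = 0.579), vehicle replicate 2 (edgeR adjusted p = 0.0997), VPA replicate 6 (edgeR adjusted p = 0.0569) and VPA replicate 5 (edgeR adjusted p = 0.0514).

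Aqp4 had the largest log2 fold change of the 10 genes, in either direction, between these groups. It ranged from 212 to 361 CPM (median 245) in the 8 VPA libraries labelled wildtype, against 450, 567 and 460 CPM in the vehicle libraries of that label. The groups did not overlap, but the vehicle group held 3 libraries, and the share of all genes without overlap was not counted. The log2 fold change was -0.89 (SE 0.20, 95% interval -1.28 to -0.51, edgeR adjusted p = 0.0615), which did not pass in edgeR and passed in DESeq2 (adjusted p = 0.029). Over all settings and left-out libraries the adjusted p ran between 0.029 and 0.791. The other 8 genes had log2 fold changes between -0.49 (Gfap, SE 0.42) and 0.10 (Aldoc, SE 0.10), each with an edgeR adjusted p of 1. In all, 3 of 10 astrocyte genes were higher and 7 lower with VPA, with a median of -0.13, against -0.001 over all genes.

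Under the mutant label none of the 10 genes passed for VPA against vehicle in edgeR, where 0.0576% of genes passed, and 0 passed in DESeq2 or limma voom. Of the 10, 3 had an unadjusted p under 0.05, against 12.6% of all genes. Slc1a3 averaged 671 ± 173 CPM in 8 VPA libraries and 541 ± 119 CPM in 13 vehicle libraries (log2 fold change 0.31, SE 0.11, edgeR adjusted p = 0.207). Gjb6 averaged 148 ± 15.8 CPM with VPA and 125 ± 31.2 CPM with vehicle (0.25, edgeR adjusted p = 0.368), and S100b 379 ± 84.2 CPM and 435 ± 56.4 CPM in the same order (-0.20, edgeR adjusted p = 0.323). All 12 oligodendrocyte markers were lower on average with VPA here (median log2 fold change -0.23, 0 passing by edgeR), with summed levels of 10395 to 18847 CPM with VPA and 13825 to 21926 CPM with vehicle. Their part in the S100b value was not tested. Rlbp1 ranged from 9.41 to 14.5 CPM with VPA and between 8.07 and 13.7 CPM with vehicle under this label (0.05, SE 0.09, 95% interval -0.14 to 0.23), and the groups overlapped.

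The difference between the VPA effects under the mutant and the wildtype label was tested as an interaction. For Rlbp1 it was 0.75 on the log2 scale (SE 0.17, unadjusted edgeR p = 3.12e-05), which did not pass over all genes (edgeR adjusted p = 0.244). Without VPA replicate 3 of the wildtype label it was 0.84 and passed (edgeR adjusted p = 0.0182), and without the libraries with the clock output of the other label it was 0.60 (edgeR adjusted p = 1). For Aqp4 the interaction was 0.68 (SE 0.24, edgeR adjusted p = 1). None of the 10 genes passed in edgeR, DESeq2 or limma voom, and 1 of all genes tested passed in edgeR (0.00640%). Of the 10, 3 had an unadjusted p under 0.05, against 2.84% of all genes.

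Averaged over the labels, Aqp4 was the 1 of 10 genes that passed for VPA against vehicle, where 0.0704% of genes passed in either direction and 0.0448% as lower. It fell by 0.55 on the log2 scale (SE 0.12, 95% interval -0.79 to -0.31, edgeR adjusted p = 0.0392). Under the mutant label Aqp4 ranged from 265 to 662 CPM (median 304) with VPA and between 274 and 499 CPM (median 420) with vehicle. Of the 8 VPA libraries of that label 7 lay below the vehicle median, and replicate 4, at 662 CPM, lay above every vehicle library. The call held in 4 of 9 other settings and without 13 of 32 single libraries, and was lost without the 16 vehicle libraries of the mutant label from mouse 48 on (-0.49, edgeR adjusted p = 0.377) and with Th as a covariate (-0.49, edgeR adjusted p = 0.112). It was also lost without the libraries with the clock output of the other label (-0.59, edgeR adjusted p = 0.0665) and without the 4 libraries low in Th (-0.54, edgeR adjusted p = 0.0515). Over the single libraries left out, the log2 fold change of Aqp4 ran between -0.65 and -0.49 and its adjusted p between 0.000716 and 0.192. Rlbp1 had a log2 fold change of -0.33 (SE 0.08, edgeR adjusted p = 0.0975), and passed in DESeq2 (adjusted p = 0.0495). It also passed without the 4 libraries low in Th (-0.39, edgeR adjusted p = 0.0357) and without the libraries with the clock output of the other label (-0.41, edgeR adjusted p = 0.0357), the same settings in which Aqp4 did not pass. The median over the 10 genes was -0.09, against 0.001 over all genes.

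**Figure D3:**
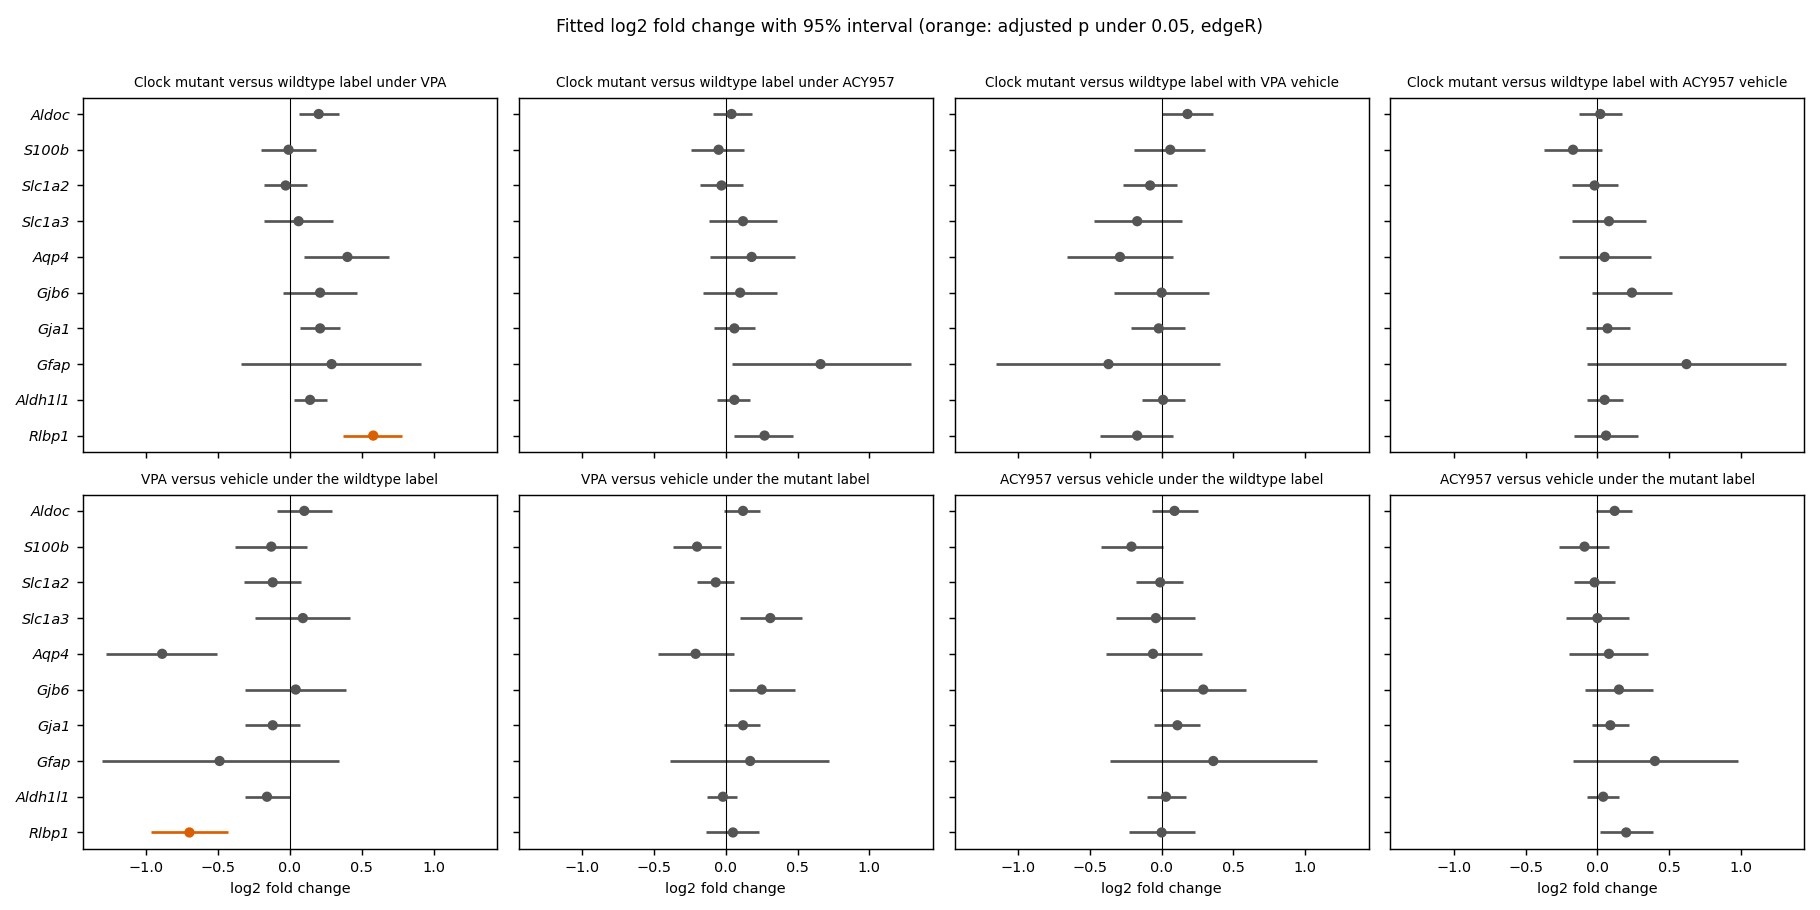
Fitted log2 fold changes with 95% intervals for the 10 astrocyte genes in 8 comparisons, with the genes that passed an edgeR adjusted p of 0.05 in orange. Rlbp1 is orange for the mutant against the wildtype label under VPA (0.58) and for VPA against vehicle under the wildtype label (-0.70), and the Gfap intervals are the widest.

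ACY957 gave no call among the astrocyte genes. Under the mutant label 0 of 10 passed against vehicle in edgeR (0.00640% of genes passed), and 1 had an unadjusted p under 0.05 (6.31% of all genes). Under the wildtype label 0 of 10 passed (0.00640% of genes), and 0 had an unadjusted p under 0.05 (3.32% of all genes). Averaged over labels 0 of 10 passed (0.0256% of genes), and 3 had an unadjusted p under 0.05 (8.19% of all genes). DESeq2 and limma voom also called none. Averaged over labels, the largest log2 fold changes were 0.38 for Gfap (95% interval -0.08 to 0.84), 0.22 for Gjb6 (0.03 to 0.41) and -0.15 for S100b (-0.29 to -0.01). The 12 oligodendrocyte markers, a cell type whose marker level ran with S100b over the libraries, all had lower fitted levels with ACY957 averaged over labels (median -0.15, 0 of 12 passing in edgeR) and under the mutant label (median -0.25, 0 of 12 passing). Their summed level ranged from 10126 to 17257 CPM with ACY957 and between 12740 and 18283 CPM with vehicle under the mutant label, and from 11568 to 18210 CPM with ACY957 and between 14728 and 16991 CPM with vehicle under the wildtype label. None of the 12 was at 0, and their part in the S100b value was not tested. Rlbp1 averaged 13.8 ± 1.47 CPM with ACY957 and 12 ± 1.71 CPM with vehicle under the mutant label (0.20, SE 0.10, edgeR adjusted p = 0.73), and 11.4 ± 1.54 CPM and 11.5 ± 1.58 CPM in the same order under the wildtype label (0.00, 95% interval -0.23 to 0.23). Aqp4 had log2 fold changes of 0.08 (-0.20 to 0.35) under the mutant label and -0.06 (-0.39 to 0.28) under the wildtype label, against -0.21 and -0.89 with VPA. The 2 drugs were given with different vehicles and no doses are in the labels, so the values stand side by side and were not compared. The interaction of ACY957 with the label passed for 0 of 10 genes in edgeR (0% of genes), DESeq2 or limma voom, and was 0.21 for Rlbp1 (SE 0.15). For this interaction 0 of 10 had an unadjusted p under 0.05, against 1.84% of all genes.

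Outside VPA, the mutant and wildtype labels did not differ past the threshold for any of the 10 genes. With ACY957 0 of 10 passed in edgeR, DESeq2 or limma voom (0% of genes by edgeR), and 2 had an unadjusted p under 0.05 (4.84% of all genes). With the VPA vehicle 0 of 10 passed (0.00640% of genes), and 0 had an unadjusted p under 0.05 (5.15% of all genes). With the ACY957 vehicle 0 of 10 passed (0.0128% of genes), and 0 had an unadjusted p under 0.05 (3.61% of all genes). Rlbp1 ranged from 12.1 to 16.5 CPM (median 13.4) in ACY957 libraries labelled mutant and between 9.51 and 14.4 CPM (median 11.5) in those labelled wildtype. All 8 libraries labelled mutant lay above the wildtype median (log2 fold change 0.27, SE 0.10, edgeR adjusted p = 0.869). With the VPA vehicle Rlbp1 ranged from 8.07 to 13.7 CPM (median 11) under the mutant label, against 10.8, 12.2 and 15 CPM under the wildtype label (-0.17, SE 0.13). With the ACY957 vehicle it ranged from 8.51 to 14.2 CPM (median 11.9) under the mutant label, against 11, 11.9, 11.5, 13.7 and 9.26 CPM under the wildtype label (0.06, SE 0.11). The groups overlapped with either vehicle.

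Gfap, the filament gene that marks reactive astrocytes, had the largest log2 fold changes of the 10 genes, in either direction, and the largest errors between the labels with ACY957 and with either vehicle. With ACY957 it ranged from 97 to 322 CPM (median 243) in libraries labelled mutant and between 68.1 and 300 CPM (median 127) in those labelled wildtype. It averaged 230 ± 77.6 CPM under the mutant label and 145 ± 76.1 CPM under the wildtype label (log2 fold change 0.66, SE 0.32, 95% interval 0.04 to 1.29, edgeR adjusted p = 1). With the ACY957 vehicle Gfap ranged from 52.1 to 329 CPM (median 175) under the mutant label, against 75.3, 206, 105, 79.7 and 101 CPM under the wildtype label (0.62, 95% interval -0.07 to 1.31). With the VPA vehicle it ranged from 86.4 to 278 CPM (median 118) under the mutant label, against 178, 209 and 120 CPM under the wildtype label (-0.37, 95% interval -1.15 to 0.41). The groups overlapped in each of these comparisons. A log2 fold change of 1 is inside the intervals with ACY957 and with its vehicle. A fall of 1 on this scale is inside the interval with the VPA vehicle. Of the reactive astrocyte list, 14 of 23 tested genes were higher under the mutant label with ACY957 (median 0.06) and 0 passed by edgeR.

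Averaged over the 4 treatments, 8 of 10 astrocyte genes had higher and 2 had lower levels in libraries labelled mutant, with a median log2 fold change of 0.08 against 0 over all genes, and 4 had an unadjusted p under 0.05 (14.4% of all genes). None passed in edgeR, DESeq2 or limma voom, where 1.61% of genes passed in edgeR. Rlbp1 was nearest (0.18, SE 0.06, edgeR adjusted p = 0.0918), followed by Aldoc (0.11, SE 0.04, edgeR adjusted p = 0.138). Rlbp1 passed without the 16 late vehicle libraries (0.22, edgeR adjusted p = 0.0308), without the 4 libraries low in Th (0.20, edgeR adjusted p = 0.0432) and without the libraries with the clock output of the other label (0.21, edgeR adjusted p = 0.0186). It also passed without replicate 3 of the VPA group (0.20, edgeR adjusted p = 0.0295) or of the VPA vehicle group (0.22, edgeR adjusted p = 0.0375) of the wildtype label. Aldoc passed without the 16 late vehicle libraries (0.16, edgeR adjusted p = 0.0218) and without the libraries with the clock output of the other label (0.14, edgeR adjusted p = 0.0384), and Gja1 without the 16 late vehicle libraries (0.14, edgeR adjusted p = 0.0182). Of the wider lists, the glial genes Gpr37l1 (0.16, edgeR adjusted p = 0.00927) and Grin2c (0.18, edgeR adjusted p = 0.00953) rose, as did Cbs, an enzyme gene of sulfur amino acid metabolism (0.22, edgeR adjusted p = 0.016). Slc38a3 rose by 0.15 (edgeR adjusted p = 0.0479) and Acsl6 by 0.08 (edgeR adjusted p = 0.0216), and Ldha, which encodes a lactate dehydrogenase subunit, fell by 0.23 (edgeR adjusted p = 0.00317). The microglial markers Csf1r, Cx3cr1, P2ry12 and Tmem119 fell by 0.17 to 0.30 (edgeR adjusted p between 0.00451 and 0.0451). Of the endothelial and mural markers, Cldn5 rose by 0.34 (edgeR adjusted p = 0.00953) and Rgs5 fell by 0.22 (edgeR adjusted p = 0.0389). Of the ependymal and choroid plexus markers, Dnaic1 rose by 0.43 (edgeR adjusted p = 0.000114). The part of these markers in the astrocyte values was not tested. Mice labelled wildtype carry numbers 1 to 24 and mice labelled mutant 25 to 64, so the label cannot be told apart from anything else that runs with the mouse number.

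The vehicles were compared as a check of how far control groups differ from each other. All 10 genes had a fitted level that was higher in VPA vehicle than in ACY957 vehicle averaged over labels, as did 48.8% of all genes. The log2 differences were not uniform: they were 0.00 for Aldh1l1 and Slc1a3 and largest for Gjb6 (0.32, SE 0.11, edgeR adjusted p = 0.171). Aqp4 had a difference of 0.31 (SE 0.13, edgeR adjusted p = 0.251), with 492 ± 64.7 CPM in the VPA vehicle group and 354 ± 49.6 CPM in the ACY957 vehicle group of the wildtype label (SD, n = 3 and 5). None of the 10 passed in edgeR, DESeq2 or limma voom, where 0.154% of genes passed in edgeR. Of the 10, 2 had an unadjusted p under 0.05, against 13.8% of all genes. Gjb6 passed without the libraries with the clock output of the other label (0.42, edgeR adjusted p = 0.0306). The 3 VPA vehicle libraries that set the VPA comparison under the wildtype label thus had the highest mean Aqp4 of the 8 groups. Dio2, the thyroid hormone deiodinase gene of glia, was the 1 of 30 other astrocyte markers that passed, higher in VPA vehicle by 0.71 (edgeR adjusted p = 0.0403).

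The genes did not move together as a single set between mice. Log2 CPM was centred on its group mean and correlated over the 64 libraries for the 45 pairs, with permutation p-values within groups adjusted over 135 relations. The median r was 0.14, with 28 pairs positive and 17 negative, and 9 positive and 6 negative pairs passed an adjusted permutation p of 0.05. The gap junction genes Gja1 and Gjb6 rose and fell together (r = 0.59, Spearman rho 0.60, adjusted permutation p of 0.00027 and 0.00045; r = 0.61 without the 2 libraries farthest from the median of Gja1). The enzyme genes Aldh1l1 and Aldoc did so too (r = 0.58, rho 0.53, adjusted permutation p of 0.00027 and 0.00054; r = 0.50 without 2 libraries). Aqp4 and Gfap had r = 0.56 (rho 0.51, adjusted permutation p of 0.00162 and 0.00135), and r = 0.43 without 2 libraries. Gjb6 and Slc1a3 had r = 0.52 (rho 0.50, adjusted permutation p of 0.000771 and 0.00135), and r = 0.44 without 2 libraries. Gja1 and Slc1a2 had r = 0.57, which rested largely on 2 libraries (r = 0.34 without them) and was not past the threshold by rank (rho 0.32, adjusted permutation p of 0.00214 and 0.0604).

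S100b ran against Slc1a3, Gjb6 and Gja1. It had r = -0.72 with Slc1a3 (rho -0.73, adjusted permutation p of 0.00027 and 0.00045; r = -0.71 without the 2 farthest libraries and -0.66 without the 4 low in Th), the strongest of the 45 pairs. It also had r = -0.48 with Gjb6 (rho -0.48) and r = -0.38 with Gja1 (rho -0.36), both past the adjusted permutation threshold, and r = -0.42 with the mean of the other 9 genes, given as a description. S100b had positive r with the mean of 12 oligodendrocyte markers (r = 0.58, rho 0.57, adjusted permutation p of 0.000675 and 0.00054; r = 0.56 without 2 libraries) and with 12 neuron markers (r = 0.51, rho 0.54, adjusted permutation p of 0.00027 and 0.000675; r = 0.53 without 2 libraries). Slc1a3 had negative r with the oligodendrocyte markers (r = -0.49, rho -0.52, adjusted permutation p of 0.00239 and 0.00116; r = -0.57 without 2 libraries) and the neuron markers (r = -0.64, rho -0.62, adjusted permutation p of 0.00027 and 0.00045; r = -0.55 without 2 libraries). With Aqp4 (r = 0.27), Gfap (0.04), Rlbp1 (-0.08), Aldoc (-0.11), Aldh1l1 (-0.21) and Slc1a2 (-0.23) S100b had no r past the adjusted permutation threshold. All these values share the library totals, and the part of the mix of cells in a punch was not tested.

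**Figure D4:**
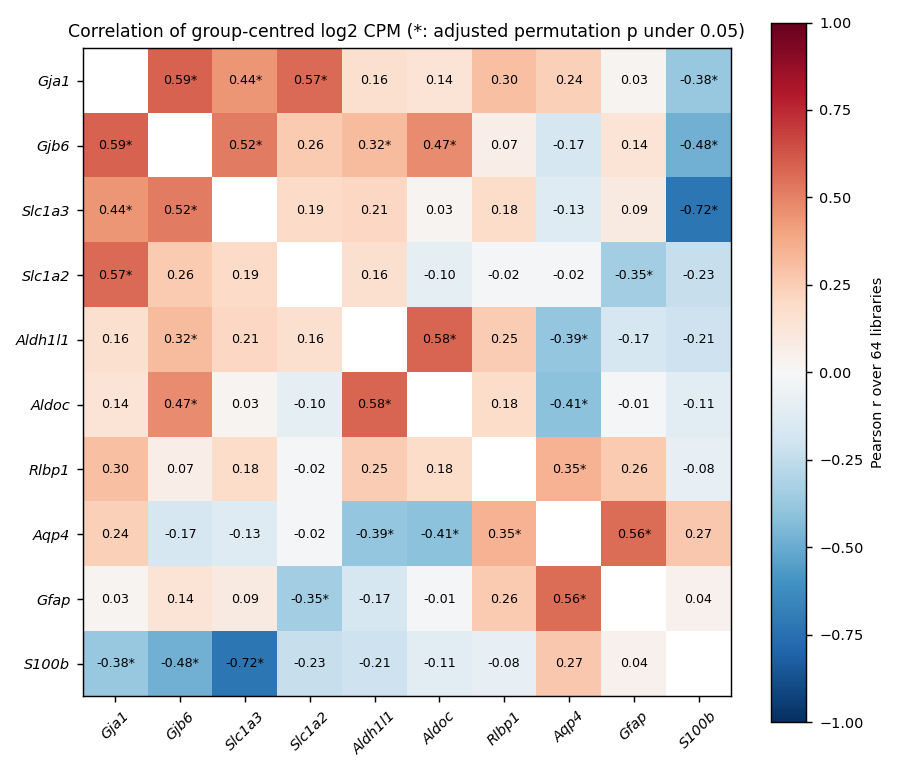
Pearson r between group-centred log2 CPM of the 10 astrocyte genes over 64 libraries, with a star for an adjusted permutation p under 0.05. The block of Gja1, Gjb6 and Slc1a3 is positive (0.44 to 0.59), and the S100b row is negative against Slc1a3 (-0.72), Gjb6 (-0.48) and Gja1 (-0.38).

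Aqp4 ran against the enzyme genes Aldoc and Aldh1l1. It had r = -0.41 with Aldoc (rho -0.39, adjusted permutation p of 0.00733 and 0.0161; r = -0.38 without 2 libraries) and r = -0.39 with Aldh1l1 (rho -0.37, adjusted permutation p of 0.00548 and 0.0215; r = -0.44 without 2 libraries). With the mean of 12 microglial markers, r was 0.42 for Aqp4 (rho 0.37, adjusted permutation p of 0.00668 and 0.0205, and r = 0.36 without 2 libraries). It was 0.40 for Gfap (rho 0.37, adjusted permutation p of 0.0114 and 0.0211, and r = 0.35 without 2 libraries). Gjb6 (r = -0.38, rho -0.35, adjusted permutation p of 0.0177 and 0.0321) and Slc1a2 (r = -0.33, rho -0.35, adjusted permutation p of 0.0371 and 0.0307) ran against these markers. Over the 60 libraries with Th at or above 8 log2 CPM, Gfap had r = 0.46 with Th (rho 0.47, adjusted permutation p of 0.00548 and 0.00482, and r = 0.40 without 2 libraries). Aqp4 had r = 0.37 with Th but did not pass by rank (rho 0.33, adjusted permutation p of 0.0433 and 0.0578). Aldoc (r = -0.37, rho -0.37, adjusted permutation p of 0.0371 and 0.0326) and Slc1a2 (r = -0.38, rho -0.42, adjusted permutation p of 0.0145 and 0.00903) ran against Th. With endothelial and mural markers Gfap had r = -0.41 (rho -0.44, adjusted permutation p of 0.00733 and 0.00576, and r = -0.49 without 2 libraries). Slc1a2 had r = 0.44 with the same markers (rho 0.47, adjusted permutation p of 0.00196 and 0.00304). Gfap also had r = -0.35 with the oligodendrocyte markers (rho -0.39, adjusted permutation p of 0.0298 and 0.0161). Rlbp1 had r = -0.40 with the mean of 12 neuron markers (rho -0.46, adjusted permutation p of 0.00963 and 0.00304, and r = -0.45 without 2 libraries). It had r = 0.37 with the mean of 12 ependymal and choroid plexus markers (rho 0.36, adjusted permutation p of 0.0274 and 0.0307, and r = 0.29 without 2 libraries). Gjb6 (r = -0.39) and Aldh1l1 (r = -0.31) also had negative r with the neuron markers, but neither passed by rank (adjusted permutation p of 0.107 for each rho). Slc1a2 had r = -0.44 with the library total (rho -0.45, adjusted permutation p of 0.00299 and 0.00374; r = -0.40 without 2 libraries), and the other 9 genes had none past the threshold. The clock output score had no r past the threshold with any of the 10 genes within its lower set or its upper set of libraries.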

How the data were processed

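RNA was measured in 64 libraries. The deposited table holds raw read counts per gene symbol, and every measured column was matched to a library by its mouse number. For alignment to mm10, the series' design gives TopHat2 2.0.9 but the submitters' processing notes give HISAT2 after Trimmomatic, so the aligner is not settled. HTSeq (0.6.1, union mode, per the design) made the counts, and FastQC 0.11.3 checked the reads. The tests used edgeR 4.0.16 in R 4.3.3 (TMM, filterByExpr, quasi-likelihood F tests, Benjamini-Hochberg over 15634 genes, threshold 0.05), in a model of 8 group means over all libraries (56 residual degrees of freedom). The 14 comparisons were of labels, drugs, vehicles and their interactions. Intervals are 1.96 SE on each side. Each result was recomputed with DESeq2 1.42.0, limma voom 3.58.1, RLE size factors, no filter, the compared groups only, without 16 late vehicle libraries, without 4 libraries low in Th, with Th as a covariate, and without each library. Leaving out 13 libraries discordant in clock output was added after the data were seen. The edgeR, DESeq2 and voom fits were tested on simulated counts.

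Positions and exon lengths came from GENCODE M21, windows from RefSeq. Correlations used 100000 permutations within groups (smallest p 1e-05) in scipy 1.17.1 and numpy 2.4.6 under Python 3.11.15. The named genes are the 10 astrocyte genes, up to 6 passing members of each wider list in a comparison, the genes most alike in pattern, and Th, Clock and Dbp as checks. A gene that the rule names is not reported here. The members, lists and rules were chosen with earlier results of these data known. Design text and labels differ in the number of vehicle mice (8 per group in the design), and the labels give no batch. Counts carry no molecular identifiers.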

Additional observations from a re-analysis of the deposited data

Results flagged for a closer look

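In groups of 4 to 10 libraries, 50 sets of values (10 genes in 5 groups) were searched for a highest or lowest library set far apart from the others of its group, and 7 were found; chance alone flags about 1 in 20 groups. Replicate 4 of the VPA group labelled mutant had the highest Aqp4, at 662 CPM against 265 to 376 CPM in the other 7, and the highest Gfap, at 406 CPM against 65.3 to 143 CPM. Replicate 2 of the ACY957 vehicle group labelled wildtype had 206 CPM of Gfap, against 75.3 to 105 CPM in the other 4. Gja1 was low in replicate 6 of the VPA group labelled mutant (424 CPM against 467 to 503 CPM) and high in replicate 3 of the VPA group labelled wildtype (541 CPM against 363 to 414 CPM), which is also low in Th. Replicate 6 of the ACY957 group labelled wildtype had the highest Gjb6, at 187 CPM against 83.1 to 130 CPM, and the lowest S100b, at 273 CPM against 353 to 397 CPM. Without replicate 4 of the VPA group labelled mutant, the count of astrocyte genes passing for VPA against vehicle averaged over labels was 2, and it was 1 with all libraries. With all libraries 0.0704% of genes passed in edgeR. The share without that replicate is not given here, so the 2 counts cannot be read as a change particular to these genes. The cause of these values was not tested.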

How the results depend on the processing

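No fold change of the 10 genes that passed changed sign in any setting, and values that did not pass changed sign 125 times. Of 4780 recomputed fold changes 4732 kept their side of the threshold, 29 lost a call and 19 gained one. Most of the 4780 belonged to results that had not passed. Of those that had, Rlbp1 between the labels under VPA passed in 9 of 9 other settings and without 16 of 16 single libraries. Rlbp1 for VPA under the wildtype label passed in 8 of 9 settings and without 7 of 11 libraries. Aqp4 for VPA averaged over labels passed in 4 of 9 settings and without 13 of 32 libraries. The count of astrocyte genes passing stayed within 1.5 times the reported count in 438 of 478 recomputations. These include counts that were 0 and stayed 0, and the count does not follow which gene passed. The counts below are not set against the share of all genes passing in the same setting. They therefore do not show a change particular to the astrocyte genes. For VPA against vehicle under the wildtype label it was 1, with 2 by DESeq2 and 0 in the compared groups only, and 0 to 2 without single libraries. Averaged over labels it was 1, with 2 by DESeq2, 0 in the compared groups only, without the 16 late vehicle libraries or with Th as a covariate, and 0 to 2 without single libraries. For the labels averaged over treatments it was 0, with 3 without the 16 late libraries, 1 without libraries low in Th, 2 without the libraries with the clock output of the other label (a choice that itself uses a readout of genotype), and 0 to 1 without single libraries. For the labels under VPA it was 1, and 1 to 3 without single libraries. The interaction of VPA and label had 0, and 0 to 1 without single libraries. For the vehicles it was 0, and 1 (Gjb6) without the libraries of the other clock output. Ranks by CPM in place of RPKM were 2 for Slc1a2, 3 for Slc1a3, 4 for Gja1, 5 for S100b, 6 for Aqp4, 7 for Gfap and 8 for Gjb6. The cause was not tested, except that leaving libraries out leaves fewer samples. The lowest count of the 10 genes in a library was 184 (Rlbp1). Totals ran from 25.7 M to 37.5 M in the VPA group and between 22.6 M and 24.5 M in the VPA vehicle group of the wildtype label, and the part of depth was not tested. No paired analysis was possible because the labels give no replicate numbers shared between groups.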

Other observations

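The genes outside the set that ran most like it over the 64 libraries were chosen by their correlation with the mean of the 10 astrocyte genes, all centred on the group mean and standardized; these values are descriptions without a test, and all share the library totals. Hacd2, an enzyme gene of very long fatty acid synthesis, had r = 0.74 and Rftn2, which encodes a lipid raft protein, had r = 0.72. Slc15a2, a peptide transporter gene, Wwtr1, which encodes the transcriptional coactivator TAZ, Unc119b and Mmd2 had r = 0.67 each. Tmem176b followed with r = 0.65, Pttg1ip with 0.64, and Cyp7b1, an oxysterol hydroxylase gene, and Tom1l1 with 0.62 each. Of these 10, Mmd2 had the highest level (339 CPM) and Cyp7b1 the lowest (20 CPM). The genes that ran most against the set were Clmp (r = -0.65), Atp8a2 (-0.63), Dhdds (-0.62), Cyp2s1 (-0.61) and Mtmr7 (-0.61). None of these 15 genes was in a list used here.

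Clock itself averaged 69 ± 7.24 CPM in VPA libraries labelled mutant and 66.1 ± 5.94 CPM in those labelled wildtype (SD, n = 8 each), which does not check the allele, since the mutation alters splicing of the message and not its presence in the count. Dbp, a direct output of the clock, averaged 33.6 ± 7.79 CPM under the mutant label and 69.2 ± 16.7 CPM under the wildtype label with VPA, and 32.4 ± 11.4 CPM and 61.8 ± 13.3 CPM in the same order with ACY957. It averaged 47.9 ± 26.3 CPM under the mutant label and 72.2 ± 21.9 CPM under the wildtype label with the VPA vehicle (SD, n = 13 and 3), and 45.1 ± 20.2 CPM and 78.3 ± 8.6 CPM in the same order with the ACY957 vehicle (SD, n = 11 and 5).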
